A study of Mus musculus with 29 samples.

Results

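The luminal domain of mixed bladder lesions in K5VP16;Pparg mice was compared with basal tumors of control mice, by RNA-seq of tumor cells taken by laser capture. The members were the 6 libraries of the table that sets the basal tumors CT111, CT113 and CT115 against the luminal domains CT128, CT143 and CT148, which makes 3 libraries in each group out of 29 samples in the series. In these lesions the upper part, facing the lumen, was captured as the luminal domain (called Top in the labels), and the part beneath it as the basal-like domain. The labels give the mutants as K5VP16;Pparg+/- and the controls as wild type, while the study describes tumor-bearing controls as VP16;Pparg fl/fl in one place and as K5;mTmG in another, and the values do not settle which applies. In the mutants a constitutively active Pparg1, fused to the VP16 activator of herpes simplex virus, sits in the Rosa26 locus behind a stop cassette with an Egfp reporter, and is switched on by Krt5CreERT2, a tamoxifen-inducible Cre driven by the Krt5 promoter in basal cells. Mice of both groups drank 0.05% BBN, a bladder carcinogen, and received tamoxifen into the bladder under ultrasound after 1 month of it, at an age at induction of 8 to 12 weeks. All 6 libraries carry the treatment label 5M BBN and a title that begins with 4M, the time since tamoxifen. The labels do not tie captures to mice, so libraries of a group may share a mouse and p-values may then be too small; they measure the spread between these captures. Values are given below in the order CT111, CT113, CT115 for basal tumors and CT128, CT143, CT148 for luminal domains.

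Pparg is a nuclear receptor that binds DNA with Rxra and drives genes of lipid storage and, in the bladder, of urothelial differentiation. The urothelium has Krt5-positive basal cells at its base and large superficial cells at the lumen, whose surface is covered by plaques of uroplakins that keep urine out. Luminal bladder tumors keep part of the superficial program, with Gata3, Foxa1, uroplakins and Krt20, whereas basal tumors express basal and squamous keratins such as Krt5, Krt14 and Krt6a.

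Normalized counts summed to between 43223602 and 46690609 in the basal tumors and between 47731703 and 52984337 in the luminal domains, and the number of reads behind them is not known. The 10 most abundant genes took 6.73% to 8.91% of the sum in basal tumors and 12.02% to 15.57% in luminal domains. Across the 14921 genes tested, Pearson's r on the log2 scale was 0.82 to 0.85 between luminal domains, 0.75 to 0.79 between basal tumors and 0.70 to 0.77 between groups, given here as a description across genes. All 6 libraries had high values of Epcam, an epithelial adhesion molecule, with 12566, 27262 and 13778 normalized counts in the basal tumors and 6367, 27662 and 19269 in the luminal domains. Basal tumor CT113 stood apart in lymphocyte genes: the summed level of 24 T cell and cytotoxic lymphocyte markers was 39110 there and between 846 and 5110 in the other 5 libraries. The 4 Y-linked genes in the table were above 0 in all 6 libraries and 0 of them were called. In bulk captures, fewer cells of a type and less RNA per cell cannot be told apart.

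A minimum of 10 normalized counts, met in 3 or more libraries, left 14921 genes to test. By limma on log2(normalized count + 1), 377 of them (2.53%) were called at an adjusted p under 0.05. Differences of low genes come out too small on this scale. In the luminal domains 254 genes rose (1.70%) and 123 fell (0.824%). The median log2 difference over all genes tested was 0.0097, and in every called gene the values of the groups did not overlap. Of the 377 called genes 58 reached the minimum of 10 in 1 group only, 37 of the higher genes in luminal domains and 21 of the lower genes in basal tumors. Such a gene is tested because it is high in that group, so its difference is a description, and those named below are given by their values alone. Called genes with 1 library of the other group at the minimum also passed the filter through their high group. Their printed p-values are to be read as descriptions too. Among the higher genes named below these include Tmem246, Upk3b, Snx31, Bcl2l14, Ugt2b34, Acaa1b, Sptlc3 and Snap25. Fbln2 and Fst are such genes among the lower ones. Values that do not overlap were common without a call, with 2092 tested genes wholly higher (14.0%) and 1911 wholly lower (12.8%) in the luminal domains. The calls rested on every luminal domain: without CT128 or without CT143 the same test called 0 genes, although 2310 and 2111 genes had an unadjusted p under 0.05, and without CT148 it called 17. Without basal tumors CT111, CT113 and CT115 in turn it called 47, 518 and 234. Upper-quartile scaling moved the median difference to −0.14 and gave 179 higher and 134 lower genes, that is 57.2% of calls higher in place of 67.4%.

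**Figure D1:**
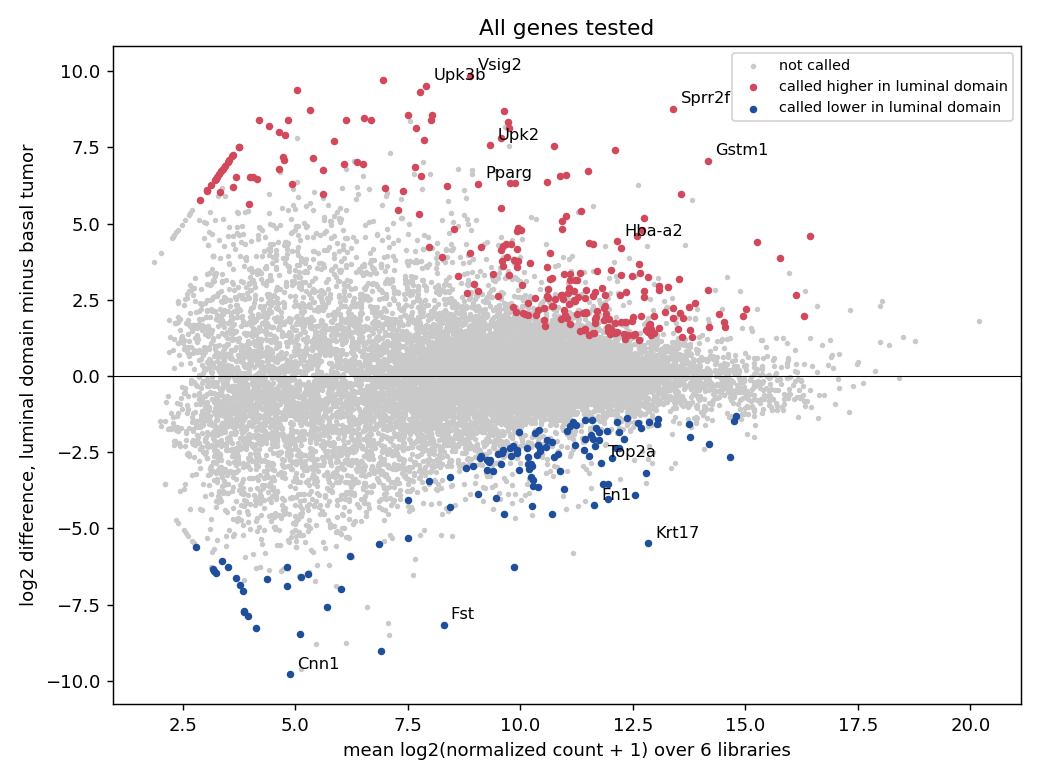
Each point is 1 of the 14921 genes tested, with its mean log2(normalized count + 1) over the 6 libraries on the x axis and its log2 difference, luminal domain minus basal tumor, on the y axis. The 254 genes called higher (red) include Vsig2, Upk3b, Sprr2f and Gstm1, the 123 called lower (blue) include Cnn1, Fst, Krt17 and Fn1, and most genes of large difference and low level are not called (grey).

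The largest rises among called genes were led by Vsig2, which encodes a membrane protein of the immunoglobulin family. It was at 12.2, 11.4 and 22.3 normalized counts in the basal tumors and 24754, 47419 and 2536 in the luminal domains, a log2 difference of 9.85 ± 1.05 (standard error, n = 3 per group) with an adjusted p of 0.0164. CT148 was the lowest of the luminal domains and still lay far above every basal tumor. Next came Tmem246, at 15.3, 1.64 and 0.818 in basal tumors against 3985, 4017 and 2880 in luminal domains (log2 difference 9.71 ± 1.06, adjusted p = 0.0166), and, after Upk3b, Pate14, which was listed at 0 in CT111 and CT115 and at 1.07 in CT113, against 1762, 188 and 1837 in CT128, CT143 and CT148. S100a5, a calcium-binding protein, was close to 0 in the basal tumors, with 1.62, 0 and 1.95 in basal tumors against 1704, 657 and 508 in luminal domains, and Pate14 and S100a5 reached the minimum in luminal domains only. Bcl2l14, of the Bcl2 family, was at 1.99, 41.6 and 5.45 in basal tumors against 7297, 2630 and 2371 in luminal domains (log2 difference 8.57 ± 1.13, adjusted p = 0.0237). Ugt2b34, a glucuronosyltransferase, was at 5.41, 65.5 and 4.82 in basal tumors against 6022, 2835 and 7727 in luminal domains (log2 difference 8.55 ± 1.07, adjusted p = 0.0219). The remaining 4 of the 10 largest rises, Upk3b, Snx31, Sprr2f and Gsta3, belong to gene groups described further on.

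The 10 largest falls were led by Cnn1. This gene, which encodes the smooth muscle protein calponin, was at 5796, 55.8 and 2088 normalized counts in CT111, CT113 and CT115 and was listed at 0 in all 3 luminal domains. Fbln2, a matrix fibulin, was at 4376, 303 and 15270 normalized counts in the basal tumors and 16.3, 1.24 and 2.75 in the luminal domains (log2 difference −9.02 ± 1.56, adjusted p = 0.0331). Mfap5 and Mfap4, both proteins of elastic microfibrils, reached at most 5.16 and 0.974 normalized counts in any luminal domain, against at least 106 and 92.0 in every basal tumor. Fst, the secreted activin antagonist follistatin, had 12636, 1473 and 8097 in basal tumors against 8.49, 5.12 and 110 in luminal domains (log2 difference −8.16 ± 1.27, adjusted p = 0.0275). Grem1, a secreted BMP antagonist, had 2673, 221 and 650 in basal tumors against 9.34, 0.954 and 8.54 in luminal domains. Usp2, a deubiquitinase, was at 445, 161 and 135 in the basal tumors and Nat8l, which makes N-acetylaspartate, at 609, 34.0 and 1342, and both were listed at 0 in every luminal domain. Klhl22, a Cullin-3 adaptor, was even among basal tumors, with 688, 617 and 899 in basal tumors against 8.07, 1.90 and 1.06 in luminal domains. Chst11, a chondroitin sulfotransferase, was at 454, 281 and 227 in basal tumors against 0, 7.60 and 1.07 in luminal domains. Of these 10 genes Cnn1, Mfap5, Mfap4, Grem1, Usp2, Nat8l, Klhl22 and Chst11 reached the minimum in basal tumors only.

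In the uroplakin list 3 genes rose in the luminal domains, the uroplakins Upk3b and Upk2 and the sorting nexin Snx31. Of 7 genes listed (5 uroplakins, Upk3bl and Snx31, a sorting nexin found with uroplakins), all 7 were tested, 3 were called higher (1.70% of all genes) and 6 did not overlap (14.0% of all genes were wholly higher), with a median log2 difference of 7.58 against 0.0097 over all genes. The largest of the called differences was in Upk3b: it was at 5.42, 0.965 and 53.9 normalized counts in the basal tumors and 13506, 6907 and 2971 in the luminal domains, a log2 difference of 9.53 ± 1.26 (standard error, n = 3 per group) with an adjusted p of 0.0237. Snx31 had 4.57, 0.978 and 57.9 normalized counts in the basal tumors and 14464, 2332 and 5037 in the luminal domains (log2 difference 9.32 ± 1.33, adjusted p = 0.0258). Upk2 had 11.4, 125 and 64.9 in basal tumors against 42437, 4708 and 3580 in luminal domains (log2 difference 7.58 ± 1.14, adjusted p = 0.0258). CT128 held the highest value of all 3 genes. The other 4 did not pass the test. Upk1a was at 38.1, 8.54 and 692 in basal tumors against 68490, 1291 and 18445 in luminal domains (log2 difference 7.53 ± 1.79, adjusted p = 0.0751), and its lowest luminal domain, CT143, lay close to its highest basal tumor, CT115. Upk3a was at 680, 4.70 and 27.1 in basal tumors against 119352, 3425 and 6521 in luminal domains (log2 difference 8.18 ± 1.85, adjusted p = 0.0672). Upk1b was at 41.0, 8630 and 1003 in basal tumors against 75920, 38062 and 59323 in luminal domains (log2 difference 6.28 ± 1.61, adjusted p = 0.0878). Upk3bl was the only one of the 7 whose groups overlapped, at 6840, 4207 and 728 in basal tumors against 2246, 13023 and 12038 in luminal domains (log2 difference 1.36 ± 0.94, adjusted p = 0.460).

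To let the uroplakin and Sprr2f results be read beside their regulatory sequence, the 250 bases before the RefSeq start of Upk3b and Sprr2f, which were called, and of Upk3a and Upk1a, which were not, are given 5′ to 3′ on the strand of the gene (GRCm38.p6). Capitals mark matches, on either strand, to any of 3 motifs that do not contain one another. The first, AGGTCA, is the half-site bound by nuclear receptors such as Pparg. Another, which is known from GATA factors, reads AGATAA in this search. The last belongs to the AP-1 family of factors and reads TGANTCA, with N for any base. Upk3b lies at chr5:136038496-136044993, and its window is chr5:136038246-136038495 on the plus strand. The windows of Sprr2f, Upk3a and Upk1a are chr3:92364937-92365186 (plus), chr15:85016891-85017140 (plus) and chr7:30612735-30612984 (minus). Upk1b, Upk2 and Snx31 are named only.
Upk3b: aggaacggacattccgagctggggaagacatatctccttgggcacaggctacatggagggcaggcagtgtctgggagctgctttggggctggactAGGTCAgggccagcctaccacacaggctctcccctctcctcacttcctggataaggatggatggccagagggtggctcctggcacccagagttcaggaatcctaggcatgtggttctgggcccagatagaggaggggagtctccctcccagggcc
Upk3a: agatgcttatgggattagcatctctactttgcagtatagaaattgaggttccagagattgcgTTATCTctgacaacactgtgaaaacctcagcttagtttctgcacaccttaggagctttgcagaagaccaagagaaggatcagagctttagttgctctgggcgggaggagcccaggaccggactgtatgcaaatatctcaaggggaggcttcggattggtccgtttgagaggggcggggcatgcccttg
Upk1a: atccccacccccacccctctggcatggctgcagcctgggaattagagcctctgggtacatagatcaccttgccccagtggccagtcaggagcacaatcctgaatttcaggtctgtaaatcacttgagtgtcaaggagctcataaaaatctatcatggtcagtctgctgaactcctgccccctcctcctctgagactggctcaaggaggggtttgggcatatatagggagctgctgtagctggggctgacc
Sprr2f: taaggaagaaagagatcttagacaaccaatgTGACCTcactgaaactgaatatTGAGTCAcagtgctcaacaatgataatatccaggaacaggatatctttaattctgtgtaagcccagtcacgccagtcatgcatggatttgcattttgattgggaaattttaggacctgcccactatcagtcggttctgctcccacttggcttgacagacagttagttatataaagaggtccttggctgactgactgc

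The Upk3b window holds 1 half-site, whose first base lies 155 bases before the start, and no match to the other motifs. The Upk3a window holds 1 GATA motif at 188 bases before the start, and the Upk1a window holds none of the motifs. In the Sprr2f window a half-site lies 219 bases and an AP-1 motif 197 bases before the start. Of 32851 RefSeq promoter windows of the same length, 14.0% held a half-site, 9.99% the GATA motif and 6.75% the AP-1 motif. The full direct repeat, in which 1 base of any kind separates a pair of half-sites in the same direction, was in 0.0335% of them, and each such repeat also counts as half-sites. Entries were found for 193 of the 254 genes called higher, with 258 windows. Of these, 11.6% held a half-site, 4.65% the GATA motif, 8.53% the AP-1 motif and 0 the repeat. The 14035 windows of all tested genes held them at 11.1%, 6.44%, 5.08% and 0.0356%. A match is a stretch of letters, not a site that was shown to be bound.

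**Figure D2:**
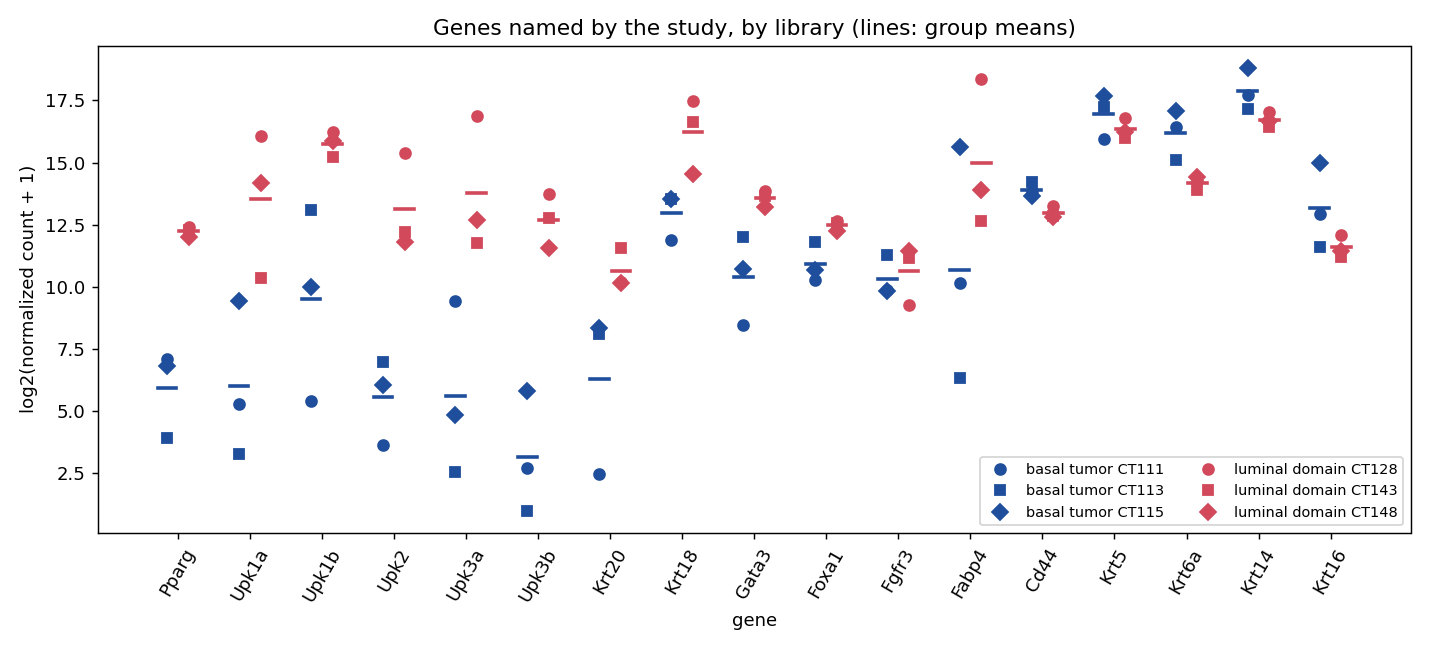
Values of log2(normalized count + 1) (y axis) are shown for the 17 genes that the study names (x axis), with 1 symbol per library and a line at each group mean, basal tumors in blue and luminal domains in red. Pparg and the uroplakins of the luminal domains lie above those of the basal tumors in all 6 libraries, Fabp4, Fgfr3, Krt5 and Krt16 overlap, and CT128 is the highest luminal domain for Upk3a and Fabp4.

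Of 6 keratins of the luminal layer 1 rose, against 1.70% of all genes. All 6 had wholly higher values, against 14.0% of all genes (median log2 difference 3.02). The called gene, Krt19, was at 15333, 41086 and 36519 normalized counts in the basal tumors and 131894, 262861 and 163594 in the luminal domains (log2 difference 2.65 ± 0.47, adjusted p = 0.0351). Krt7, Krt8 and Krt18, simple-epithelium keratins, missed the threshold. Krt18 was at 3748, 11694 and 11954 in basal tumors against 180891, 101583 and 23683 in luminal domains (log2 difference 3.23 ± 0.76, adjusted p = 0.0744), with CT148 the lowest of the luminal domains. Krt8 gave a log2 difference of 2.78 ± 0.59 (adjusted p = 0.0556) and Krt7 gave a log2 difference of 2.80 ± 0.62 (adjusted p = 0.0637). Krt20, the keratin of superficial cells, was at 4.47, 274 and 319 in basal tumors against 1166, 2983 and 1126 in luminal domains (log2 difference 4.33 ± 1.50, adjusted p = 0.164), and CT111 had almost none. Krt23 had 19.5, 281 and 1806 in basal tumors against 7047, 23244 and 2914 in luminal domains (log2 difference 5.16 ± 1.49, adjusted p = 0.114).

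Among 17 tested transcription factors of luminal urothelium, 4 rose, against 1.70% of all genes. None fell, and the median log2 difference was 1.40. Pparg, the gene the transgene supplies, was first checked in every library: it was at 135, 13.7 and 109 normalized counts in the basal tumors and 5405, 5001 and 4051 in the luminal domains, a log2 difference of 6.31 ± 0.86 (standard error, n = 3 per group) with an adjusted p of 0.0239. The 3 luminal domains lay close together and far above the highest basal tumor, and reads from the transgene and from the endogenous gene at chr6:115360879-115490404 were not told apart. Tbx2, a T-box repressor, was at 364, 1687 and 526 normalized counts in the basal tumors and 9922, 5457 and 6374 in the luminal domains (log2 difference 3.35 ± 0.57, adjusted p = 0.0329). Foxq1, a forkhead factor, had 2022, 3486 and 4327 in basal tumors against 29145, 20384 and 23206 in luminal domains (log2 difference 2.94 ± 0.34, adjusted p = 0.0187). Elf3, an epithelial ETS factor, had 2068, 3825 and 2846 in basal tumors against 14965, 27884 and 11701 in luminal domains (log2 difference 2.59 ± 0.39, adjusted p = 0.0258). Gata3 and Foxa1, which are used to define luminal bladder cancer, did not pass the test. Gata3 was at 350, 4098 and 1656 in basal tumors against 14990, 13007 and 9478 in luminal domains (log2 difference 3.20 ± 0.78, adjusted p = 0.0791). Foxa1 was at 1236, 3526 and 1612 in basal tumors against 6475, 6084 and 4881 in luminal domains (log2 difference 1.59 ± 0.41, adjusted p = 0.0902), so that neither overlapped between groups. Of 14 tested partners and co-regulators of Pparg, 0 were called (median log2 difference 0.20). The smallest p was that of Ppargc1a, a coactivator of mitochondrial genes, at 0, 1.80 and 61.7 in basal tumors against 193, 174 and 711 in luminal domains (log2 difference 5.69 ± 1.67, adjusted p = 0.118). Ppara, a related receptor of fatty acid breakdown, gave a log2 difference of 3.24 ± 1.62 (adjusted p = 0.306), and the corepressor Ncor1 gave a log2 difference of 0.74 ± 0.34 (adjusted p = 0.272).

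Of 18 tested genes of the urothelial barrier and its channels 4 rose, 0 fell and 10 did not overlap, all higher (median log2 difference 2.02). Over all genes 1.70% rose and 14.0% were wholly higher. Slc14a1, the urea transporter, was at 92.5, 875 and 451 normalized counts in the basal tumors and 14195, 13569 and 7531 in the luminal domains (log2 difference 5.09 ± 0.76, adjusted p = 0.0258). Tmprss2, a membrane serine protease, was even across luminal domains, at 1089, 3940 and 469 in basal tumors against 30360, 27911 and 33902 in luminal domains (log2 difference 4.60 ± 0.67, adjusted p = 0.0258). Tjp3, a tight junction scaffold, had 190, 533 and 220 in basal tumors against 3668, 5929 and 1751 in luminal domains (log2 difference 3.57 ± 0.60, adjusted p = 0.0316). Aqp3, a water and glycerol channel, had 19954, 10490 and 9957 in basal tumors against 53858, 34678 and 43743 in luminal domains (log2 difference 1.76 ± 0.35, adjusted p = 0.0465). For all 4, the lowest luminal domain exceeded the highest basal tumor.

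Among targets of Pparg in fat cells 1 gene rose, against 1.70% of all genes, and 8 were wholly higher, against 14.0%. Of 36 genes listed, 35 were in the table and 27 were tested, and 1 was called, Acaa1b, a peroxisomal thiolase of fatty acid breakdown, with 6.23, 9.54 and 36.7 normalized counts in the basal tumors and 15655, 2463 and 2814 in the luminal domains (log2 difference 8.39 ± 1.01, adjusted p = 0.0205). The median of the 27 was 0.91. Fabp4, the fatty acid binding protein used as a readout of Pparg activity, overlapped between groups, at 1137, 77.7 and 50164 in basal tumors against 337014, 6468 and 15077 in luminal domains (log2 difference 4.28 ± 2.28, adjusted p = 0.336). The basal tumor CT115 had more Fabp4 than the luminal domains CT143 and CT148, and CT128 held the highest value. Dgat2, which makes triglycerides, was at 175, 63.6 and 3399 in basal tumors against 6754, 8652 and 5391 in luminal domains (log2 difference 4.33 ± 1.26, adjusted p = 0.114). Me1, of NADPH supply, gave a log2 difference of 1.76 ± 0.49 (adjusted p = 0.106). Among 21 genes of fatty acid oxidation 11 were wholly higher, against 14.0% of all genes (median 0.97), and 3 rose, against 1.70%. These were Eci1, at 2628, 3301 and 2303 in basal tumors against 7709, 6428 and 7438 in luminal domains (log2 difference 1.40 ± 0.26, adjusted p = 0.0407), Acaa1a (log2 difference 1.39 ± 0.25, adjusted p = 0.0383) and Hadhb (log2 difference 1.36 ± 0.26, adjusted p = 0.0437). In cholesterol synthesis (23 tested), glycolysis and hypoxia (23) and oxidative phosphorylation (33), 0 genes were called, with median log2 differences of 0.52, −0.32 and 0.023. Pgk1, of glycolysis, gave a log2 difference of −1.38 ± 0.55 (adjusted p = 0.211), Ndufa4, of the respiratory chain, gave a log2 difference of −1.36 ± 0.42 (adjusted p = 0.128), and Nsdhl, of cholesterol synthesis, gave a log2 difference of 1.21 ± 0.49 (adjusted p = 0.220).

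Glutathione conjugation held 8 called genes of 24 tested, all higher, against 1.70% of all genes. Wholly higher values were found in 19, against 14.0% of all genes, and the median log2 difference was 2.64. Gsta3, an alpha-class glutathione transferase, was at 19.7, 7.61 and 328 normalized counts in the basal tumors and 10196, 25406 and 16289 in the luminal domains (log2 difference 8.70 ± 1.21, adjusted p = 0.0239). Gstm1 had 533, 2676 and 2827 in basal tumors against 856328, 174598 and 64601 in luminal domains (log2 difference 7.06 ± 0.97, adjusted p = 0.0239), and CT128 held a far higher value than CT148. Gsta2 was at 66.7, 16.7 and 988 in basal tumors against 12581, 8893 and 5499 in luminal domains (log2 difference 6.33 ± 1.28, adjusted p = 0.0481). Gstt3 was at 266, 1237 and 150 in basal tumors against 8189, 14083 and 9962 in luminal domains (log2 difference 4.83 ± 0.72, adjusted p = 0.0258). The other 4 called were Gstm4, Gstp2, Gstt2 and Mgst3. Some members of the same glutathione transferase class are close copies, and reads may be split among those. Of 30 tested enzymes of oxidation and conjugation 7 rose and 0 fell (median 1.65), against 1.70% and 0.824% of all genes. Akr1b8, an aldo-keto reductase, was at 869, 1919 and 2186 in basal tumors against 128470, 176130 and 40889 in luminal domains (log2 difference 5.98 ± 0.58, adjusted p = 0.0103). Fmo5, a flavin monooxygenase, was at 127, 44.7 and 162 in basal tumors against 18631, 5387 and 4804 in luminal domains (log2 difference 6.32 ± 0.70, adjusted p = 0.0166). Aldh3b2, an aldehyde dehydrogenase, had 76.2, 417 and 1185 in basal tumors against 24806, 11046 and 7802 in luminal domains (log2 difference 5.26 ± 0.92, adjusted p = 0.0351). Nqo1, the quinone reductase, had 400, 2622 and 1971 in basal tumors against 36325, 60646 and 20006 in luminal domains (log2 difference 4.79 ± 0.72, adjusted p = 0.0258). The other 3 were Aldh1a1, Cyp1b1 and Por.

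Of 14 tested retinoid genes 1 was called higher and 1 lower (median 0.83), against 1.70% and 0.824% of all genes. Aldh1a1, which makes retinoic acid, was at 155, 2631 and 823 normalized counts in the basal tumors and 11025, 17780 and 14290 in the luminal domains (log2 difference 4.34 ± 0.88, adjusted p = 0.0488). The lowest luminal domain exceeded the highest basal tumor.

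Of 13 tested basal markers 1 was called lower, against 0.824% of all genes. Wholly lower values were found in 7, against 12.8% of all genes (median −0.93). Krt17, a keratin of basal and squamous cells, was at 37150, 16702 and 191853 normalized counts in the basal tumors and 409, 1836 and 1736 in the luminal domains (log2 difference −5.49 ± 0.91, adjusted p = 0.0316). Krt5, the keratin whose promoter drove Cre, overlapped, at 63683, 155653 and 207329 in basal tumors against 113247, 64302 and 77799 in luminal domains (log2 difference −0.62 ± 0.50, adjusted p = 0.528). Krt14 was at 217341, 147050 and 458421 in basal tumors against 135246, 87519 and 105889 in luminal domains (log2 difference −1.18 ± 0.49, adjusted p = 0.224), lower in every luminal domain than in every basal tumor yet not called. Krt15 overlapped, at 4859, 186830 and 98413 in basal tumors against 167779, 159971 and 398092 in luminal domains (log2 difference 2.30 ± 1.22, adjusted p = 0.335), and CT148 held the highest value of all 6. Trp63, the p53 relative that specifies basal cells, gave 4020, 4814 and 9334 in basal tumors against 3696, 2678 and 3978 in luminal domains (log2 difference −0.73 ± 0.37, adjusted p = 0.313). Cd44, Pdpn and Col17a1 gave log2 differences of −0.93 ± 0.27 (adjusted p = 0.110), −1.57 ± 0.46 (adjusted p = 0.115) and −0.93 ± 0.30 (adjusted p = 0.138), none of them overlapping. Of 9 hemidesmosome genes, which anchor basal cells to the basement membrane, 1 fell, the integrin Itga6, at 13378, 11482 and 13018 in basal tumors against 4156, 4136 and 4908 in luminal domains (log2 difference −1.52 ± 0.23, adjusted p = 0.0271), and the median was −0.93. Its partner Itgb4 and the linker Dst gave log2 differences of −1.18 ± 0.32 (adjusted p = 0.0990) and −1.12 ± 0.27 (adjusted p = 0.0780).

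Among 9 keratins of activated and squamous epithelium 0 were called (median 0.13). Krt6a was lower in every luminal domain, at 88681, 35021 and 137824 normalized counts in the basal tumors and 19679, 15260 and 21749 in the luminal domains (log2 difference −2.01 ± 0.49, adjusted p = 0.0781), although reads of Krt6a and its near copy Krt6b may be shared. Krt16 overlapped (log2 difference −1.59 ± 0.76, adjusted p = 0.286), as did Krt1 (log2 difference 3.69 ± 2.24, adjusted p = 0.396), and Krt78 was higher without passing the test (log2 difference 4.91 ± 1.36, adjusted p = 0.104). The cornified envelope list is mostly of proteins that are cross-linked beneath the membrane of stratified cells. It had 4 of 21 tested genes called higher, against 1.70% of all genes, and 0 lower, with a median of 0.57. Sprr2f, whose upstream sequence is printed above, was at 242, 282 and 1994 in basal tumors against 334385, 161025 and 214674 in luminal domains (log2 difference 8.78 ± 0.76, adjusted p = 0.00932). Sprr2g, which RefSeq annotates as a transcribed pseudogene, had 72.0, 218 and 1366 in basal tumors against 42215, 27054 and 23430 in luminal domains (log2 difference 6.74 ± 0.92, adjusted p = 0.0239). Sprr1a had 8048, 13976 and 52183 in basal tumors against 670162, 363149 and 328062 in luminal domains (log2 difference 4.58 ± 0.67, adjusted p = 0.0258). Ivl, the envelope protein involucrin, was at 237, 5033 and 1226 in basal tumors against 76192, 15744 and 60609 in luminal domains (log2 difference 5.20 ± 1.05, adjusted p = 0.0482). The Sprr2 genes are close copies in a cluster on chromosome 3, so the split between them is uncertain.

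For growth factor genes the counts stand beside the shares over all genes, 2.53% called, 0.824% called lower and 12.8% wholly lower. Of 12 tested ERBB receptors and ligands 1 fell, Nrg1, the neuregulin ligand of Erbb3, at 4603, 2058 and 2563 normalized counts in the basal tumors and 415, 473 and 507 in the luminal domains (log2 difference −2.64 ± 0.41, adjusted p = 0.0277). Nrg4 was close to 0 in the luminal domains, at 25.0, 115 and 94.7 in basal tumors against 0, 0.787 and 0 in luminal domains, and reached the minimum in basal tumors only. Erbb3 and the EGF receptor ligand Tgfa had wholly higher values, and gave log2 differences of 1.37 ± 0.37 (adjusted p = 0.1002) and 1.91 ± 0.50 (adjusted p = 0.0944). Of 11 FGF receptors and feedback genes 0 were called and 6 were wholly lower (median −1.26). Fgfr3, the receptor frequently altered in luminal tumors, overlapped, at 923, 2463 and 915 in basal tumors against 616, 2245 and 2756 in luminal domains (log2 difference 0.29 ± 0.66, adjusted p = 0.838), and its sign turned to −0.12 without CT148. Dusp6, an ERK phosphatase induced by FGF signaling, was at 4516, 9905 and 3430 in basal tumors against 547, 761 and 1882 in luminal domains (log2 difference −2.54 ± 0.56, adjusted p = 0.0637). Spry2, Spred1 and Etv5, also feedback or target genes, gave log2 differences of −3.13 ± 0.84 (adjusted p = 0.0962), −1.62 ± 0.38 (adjusted p = 0.0708) and −2.15 ± 0.67 (adjusted p = 0.131). Of 13 hedgehog, BMP and Wnt genes 0 were called (median 0.78). Shh, the hedgehog ligand of urothelium, was at 3.60, 275 and 0 in basal tumors against 1395, 1312 and 2901 in luminal domains (log2 difference 7.33 ± 1.89, adjusted p = 0.0900). Sfrp1, a secreted Wnt inhibitor, was at 809, 1953 and 1519 in basal tumors against 4.67, 88.6 and 91.8 in luminal domains (log2 difference −5.21 ± 1.18, adjusted p = 0.0674). Wnt7b was wholly higher (log2 difference 1.55 ± 0.45, adjusted p = 0.114) and Wnt5a overlapped (log2 difference 2.53 ± 1.11, adjusted p = 0.247).

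Cell cycle genes that were called were all lower in the luminal domains. Of 42 S phase genes 8 fell, 0 rose, 41 had a negative difference and 35 were wholly lower, with a median log2 difference of −1.83, against 0.824% called lower and 12.8% wholly lower among all genes. Ccne2, a cyclin of S phase entry, was at 2719, 1381 and 2299 normalized counts in the basal tumors and 184, 133 and 112 in the luminal domains (log2 difference −3.86 ± 0.52, adjusted p = 0.0239). Ccne1 gave a log2 difference of −3.31 ± 0.67 (adjusted p = 0.0480). Uhrf1, which maintains DNA methylation at replication, had 3311, 3759 and 2508 in basal tumors against 408, 627 and 296 in luminal domains (log2 difference −2.89 ± 0.41, adjusted p = 0.0258), and Cdt1, which loads the replicative helicase, gave a log2 difference of −2.75 ± 0.55 (adjusted p = 0.0468). Of 50 G2/M genes 14 fell, 0 rose, 49 had a negative difference and 42 were wholly lower (median −1.89). Top2a, the topoisomerase of mitosis, was at 13726, 7771 and 8028 in basal tumors against 1567, 1023 and 1446 in luminal domains (log2 difference −2.84 ± 0.33, adjusted p = 0.0203). Ccna2, the cyclin of S phase and G2, had 6452, 3146 and 4027 in basal tumors against 546, 690 and 876 in luminal domains (log2 difference −2.65 ± 0.38, adjusted p = 0.0258). Hmmr and the spindle motor Kif11 gave log2 differences of −2.62 ± 0.41 (adjusted p = 0.0275) and −2.64 ± 0.49 (adjusted p = 0.0406), and the proliferation marker Mki67 was at 5873, 7109 and 4952 in basal tumors against 2187, 938 and 1841 in luminal domains (log2 difference −1.92 ± 0.38, adjusted p = 0.0461). Of 17 G1 cyclins and CDK inhibitors 0 were called (median −0.58). Cdkn2b, the p15 inhibitor, was wholly higher, at 1514, 1905 and 4048 in basal tumors against 6542, 6108 and 5947 in luminal domains (log2 difference 1.45 ± 0.39, adjusted p = 0.0961), and Ccnd1, Cdkn2d and E2f2 were wholly lower (log2 difference −0.95 ± 0.30, adjusted p = 0.136, log2 difference −1.25 ± 0.37, adjusted p = 0.121 and log2 difference −4.26 ± 1.52, adjusted p = 0.174).

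**Figure D3:**
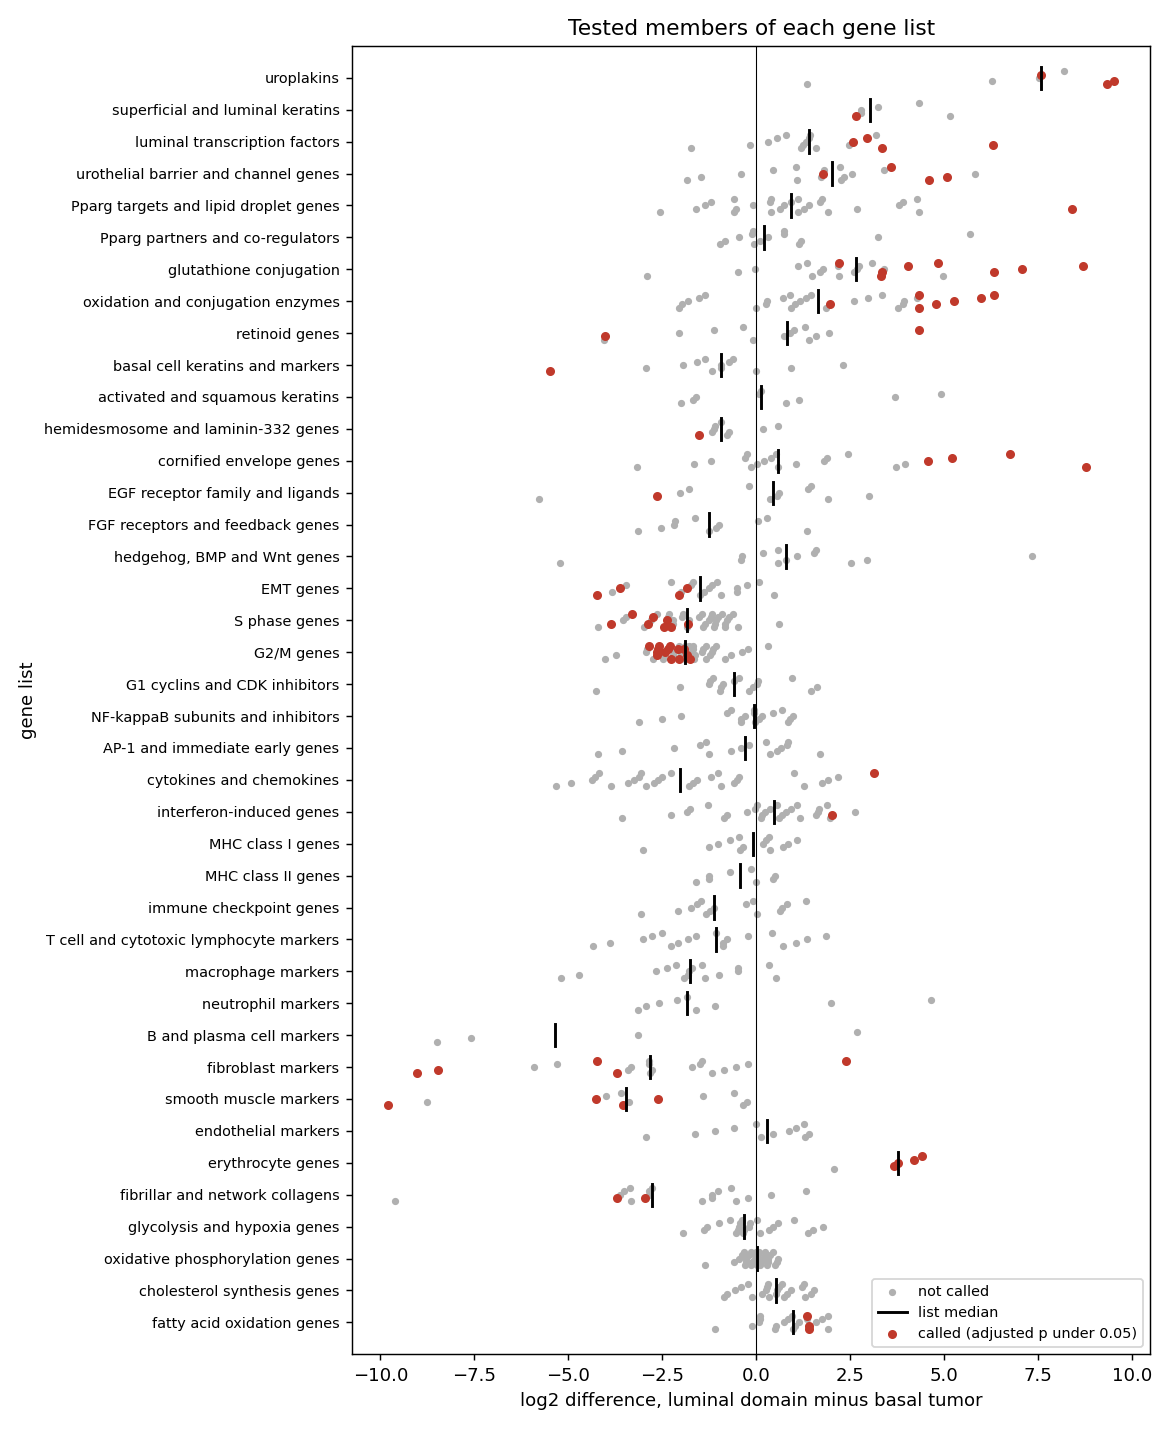
Each point is a tested member of a gene list (y axis), placed by its log2 difference, luminal domain minus basal tumor (x axis), with called genes in red and the list median as a black bar. Uroplakin, glutathione conjugation and erythrocyte lists lie to the right with 3, 8 and 4 called genes, and S phase, G2/M and smooth muscle lists lie to the left with 8, 14 and 4. Among the called smooth muscle genes, Cnn1 reached the minimum in basal tumors only.

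Of 21 genes of epithelial-mesenchymal transition (EMT) 4 fell, against 0.824% of all genes, 0 rose and 19 had a negative difference (median −1.50). Fn1, the matrix protein fibronectin, was at 22489, 8552 and 14105 normalized counts in the basal tumors and 866, 615 and 759 in the luminal domains (log2 difference −4.24 ± 0.39, adjusted p = 0.00932). Postn, periostin, had 6545, 1891 and 8569 in basal tumors against 497, 285 and 391 in luminal domains (log2 difference −3.63 ± 0.59, adjusted p = 0.0303). Vim, the intermediate filament vimentin, had 6811, 4925 and 8433 in basal tumors against 2005, 1350 and 2269 in luminal domains (log2 difference −1.84 ± 0.33, adjusted p = 0.0371). Tgfbi gave a log2 difference of −2.06 ± 0.34 (adjusted p = 0.0316). Of 19 tested collagens 2 fell, Col5a2 (log2 difference −3.70 ± 0.54, adjusted p = 0.0258) and Col12a1 (log2 difference −2.95 ± 0.36, adjusted p = 0.0205), and 17 had a negative difference (median −2.77). Stromal markers moved with these genes. Of 20 tested fibroblast markers 4 were called lower and 1 higher (median −2.83). Of the 4, Mfap5 reached the minimum in basal tumors only, so its fall is a description. The summed level of the list was 99088 to 135558 in basal tumors and 42655 to 81750 in luminal domains. The gene that rose, Gsn, encodes gelsolin, an actin-severing protein that epithelia also express, at 4104, 8399 and 8228 in basal tumors against 38351, 29101 and 35957 in luminal domains (log2 difference 2.38 ± 0.34, adjusted p = 0.0252). The fibroblast-defining genes Dcn and Pdgfra were above 0 in every library and overlapped, at 9349, 17972 and 3633 in basal tumors against 8628, 831 and 2431 in luminal domains for Dcn, and Col1a1 was at 8197, 6895 and 9502 in basal tumors against 3794, 1093 and 348 in luminal domains (log2 difference −2.85 ± 0.75, adjusted p = 0.0944). Of 12 tested smooth muscle markers 4 were called lower (median −3.47). Of the 4, Cnn1 reached the minimum in basal tumors only, and its fall too is a description. The sum of the list was 14437 to 74054 in basal tumors and 3672 to 7180 in luminal domains. Acta2, smooth muscle actin, was at 13264, 4422 and 41514 in basal tumors against 1156, 990 and 1337 in luminal domains (log2 difference −3.54 ± 0.71, adjusted p = 0.0468), and Tagln and Cald1 gave log2 differences of −4.26 ± 0.87 (adjusted p = 0.0496) and −2.62 ± 0.48 (adjusted p = 0.0381). Desmin (Des), which defines muscle, was listed at 0 in CT143 and CT148 and at 280 in CT128, against 4614, 133 and 0.813 in CT111, CT113 and CT115. The part of stromal cells within the captures in the EMT and collagen values was not tested.

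Of 12 tested endothelial markers 0 were called (median 0.29). Their summed level overlapped, at 5084 to 8754 in basal tumors and 6111 to 9852 in luminal domains. Flt1 and Vwf were wholly lower (log2 difference −1.62 ± 0.43, adjusted p = 0.0944 and log2 difference −2.95 ± 1.22, adjusted p = 0.225), Emcn was wholly higher (log2 difference 1.06 ± 0.48, adjusted p = 0.265), and Esam overlapped (log2 difference 1.27 ± 0.54, adjusted p = 0.232). Of 5 erythrocyte genes 4 rose, against 1.70% of all genes (median 3.78). The fifth, Alas2, was wholly higher, as were 14.0% of all genes. Hba-a2, an alpha-globin gene with the near-identical copy Hba-a1, was at 1632, 569 and 1011 normalized counts in the basal tumors and 17374, 19971 and 26244 in the luminal domains (log2 difference 4.41 ± 0.41, adjusted p = 0.00932). Hbb-bs was at 3795, 968 and 1537 in basal tumors against 12988, 22300 and 40187 in luminal domains (log2 difference 3.67 ± 0.57, adjusted p = 0.0275), and Hba-a1 and Hbb-bt gave log2 differences of 4.19 ± 0.51 (adjusted p = 0.0205) and 3.78 ± 0.73 (adjusted p = 0.0455). The summed level of the 5 genes was 2148 to 7557 in basal tumors and 51621 to 96202 in luminal domains. Alas2, the enzyme of heme synthesis in red cells, was low, at 20.7, 41.7 and 80.6 in basal tumors against 193, 181 and 162 in luminal domains (log2 difference 2.08 ± 0.95, adjusted p = 0.265).

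**Figure D4:**
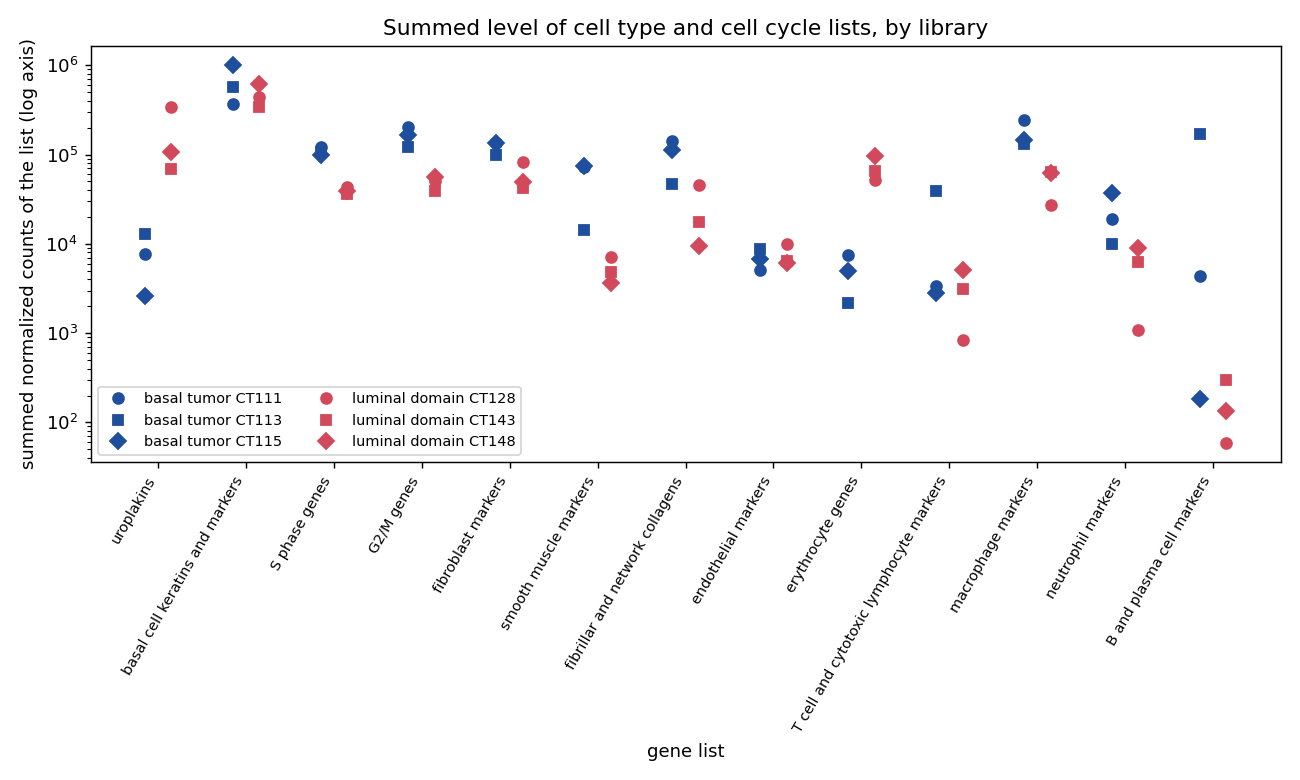
The summed normalized counts of 13 gene lists (y axis, log scale) are shown for each list (x axis) with 1 symbol per library, basal tumors in blue and luminal domains in red. Sums of the uroplakin, S phase, G2/M, smooth muscle, fibroblast, collagen, macrophage, neutrophil and erythrocyte lists do not overlap between groups, those of the basal, endothelial, T cell and B cell lists do, and CT113 stands at 39110 for T cell markers and 169457 for B and plasma cell markers.

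Calls among immune and inflammatory genes are given beside the shares over all genes, 2.53% called either way and 0.824% called lower. Of 19 tested T cell and cytotoxic lymphocyte markers 0 were called and 14 had a negative difference (median −1.08). Ptprc, the pan-leukocyte marker CD45, was at 1756, 3776 and 924 normalized counts in the basal tumors and 157, 274 and 760 in the luminal domains (log2 difference −2.51 ± 0.74, adjusted p = 0.118). Trac, the T cell receptor alpha constant gene, was at 106, 1551 and 545 in basal tumors against 1.16, 61.9 and 80.1 in luminal domains (log2 difference −4.34 ± 1.66, adjusted p = 0.196). Both were wholly lower, while Cd3e and Cd8a overlapped, with 3.12, 582 and 39.1 in basal tumors against 60.0, 126 and 111 in luminal domains for Cd3e, and the cytotoxic granzyme Gzma was at 7930 in CT113 and at most 274 elsewhere. Of 16 macrophage markers 0 were called (median −1.76). Their summed level was 130727 to 242789 in basal tumors and 27356 to 64014 in luminal domains. Apoe and Lyz2 were wholly lower (log2 difference −1.92 ± 0.52, adjusted p = 0.0975 and log2 difference −2.39 ± 0.70, adjusted p = 0.119), Mrc1 likewise (log2 difference −4.71 ± 1.44, adjusted p = 0.128). Adgre1, which encodes F4/80, was at 2148, 1184 and 180 in basal tumors against 52.4, 112 and 307 in luminal domains (log2 difference −2.65 ± 1.09, adjusted p = 0.221). Of 9 neutrophil and 4 B and plasma cell markers 0 were called. Of the neutrophil markers 7 had a negative difference (median −1.83), and their summed level was 9931 to 37006 in basal tumors and 1088 to 8912 in luminal domains. Ly6g alone was wholly higher in the luminal domains, at values near 0 (0, 4.62 and 0 in basal tumors against 19.6, 97.1 and 43.2 in luminal domains), and S100a8 overlapped (log2 difference −2.92 ± 2.12, adjusted p = 0.484). Igkc, the kappa light chain, was at 2795, 109786 and 54.0 in basal tumors against 2.32, 3.15 and 25.5 in luminal domains, and Jchain at 1491, 56019 and 28.4 in basal tumors against 6.17, 4.36 and 8.10 in luminal domains. The adjusted p of Igkc was 0.114, Jchain reached the minimum in basal tumors only, and CT113 held the highest value of both.

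Of 30 cytokine and chemokine genes 1 rose, against 1.70% of all genes, and 24 had a negative difference (median −2.03). The gene that rose was Il18, a cytokine made by epithelia, at 1178, 866 and 400 normalized counts in the basal tumors and 7285, 9434 and 4115 in the luminal domains (log2 difference 3.14 ± 0.49, adjusted p = 0.0275). The chemokine Ccl2 was at 1398, 1241 and 3469 in basal tumors against 41.9, 81.0 and 540 in luminal domains (log2 difference −3.88 ± 0.97, adjusted p = 0.0832), and Il6 gave a log2 difference of −4.94 ± 1.66 (adjusted p = 0.155). Il1a overlapped (log2 difference 1.76 ± 0.65, adjusted p = 0.186). Of 28 interferon-induced genes 1 rose, Usp18, which restrains interferon signaling, at 1697, 1410 and 741 in basal tumors against 4250, 3954 and 7054 in luminal domains (log2 difference 2.02 ± 0.41, adjusted p = 0.0482), and the median was 0.46. Oasl1 and Irf9 were wholly higher (log2 difference 1.89 ± 0.65, adjusted p = 0.162 and log2 difference 0.69 ± 0.35, adjusted p = 0.314). The summed level of that list was 175465 in CT148 and 190870 in CT113, and 22575 to 41437 in the other 4 libraries. Sums of MHC class I genes divided the libraries in the same way, with 620164 in CT148, 843690 in CT113 and 85487 to 151832 elsewhere. No MHC class I (14 tested), class II (8) or immune checkpoint gene (15) was called, with median log2 differences of −0.084, −0.43 and −1.11. H2-D1, a class I heavy chain, was at 24429, 180173 and 18230 in basal tumors against 64214, 51281 and 227691 in luminal domains, and H2-Eb1, of class II, at 1003, 25981 and 27802 in basal tumors against 4250, 1711 and 7249 in luminal domains. Tnfrsf9 was wholly lower (log2 difference −2.07 ± 0.93, adjusted p = 0.256). Of 18 NF-kappaB genes and 16 AP-1 and immediate early genes 0 were called, with medians of −0.061 and −0.30. Nfkbia, the inhibitor that NF-kappaB induces, was at 20361, 14166 and 10313 in basal tumors against 7439, 9603 and 8391 in luminal domains (log2 difference −0.77 ± 0.31, adjusted p = 0.211), Nfkbie gave a log2 difference of −3.11 ± 0.93 (adjusted p = 0.122), and Myc was at 3898, 6142 and 4972 in basal tumors against 1762, 1501 and 2721 in luminal domains (log2 difference −1.35 ± 0.33, adjusted p = 0.0819).

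The luminal domain was next set beside luminal tumors, to which the labels give the same genotype and treatment. The table that holds luminal tumors CT126, CT132 and CT140 and the basal tumors has 2 luminal domains, CT128 and CT143, and was normalized on its own, so values differ slightly from those above. Of 15357 genes tested in a fit of all 3 groups, limma called 0 (0%) between luminal domains and luminal tumors, with 723 at an unadjusted p under 0.05 (4.71%) and a smallest adjusted p of 0.396. Pparg was at 7216, 8632 and 3579 in the luminal tumors and 4948 and 4520 in the luminal domains, a log2 difference of −0.36 with a 95% interval of −2.36 to 1.65. Of 7 genes in the uroplakin list 1 was higher and 6 were lower in the luminal domains (median −0.51), with 0 at an unadjusted p under 0.05. Upk3b was at 5333, 26467 and 1275 in luminal tumors and 12619 and 6371 in luminal domains (0.67, −2.66 to 3.99), and Upk2 at 31624, 60114 and 3492 against 39806 and 4359 (−0.51, −3.62 to 2.59). These intervals are wide, and the data do not show that the groups are alike. Basal markers were mostly higher in the luminal domains, 12 of 13 with a median log2 difference of 1.74 and 4 at an unadjusted p under 0.05, and all 9 hemidesmosome genes were higher (median 1.24), against 0.092 over all genes. Col17a1, a hemidesmosome collagen, was at 5012, 788 and 2168 in luminal tumors and 11194 and 6574 in luminal domains (log2 difference 2.07, 0.61 to 3.53, adjusted p = 0.982). Krt14 was at 16891, 2431 and 95586 against 121732 and 77764 (2.62, −0.10 to 5.35), and Krt5 at 43414, 4731 and 91588 against 105914 and 59367 (1.58, −0.82 to 3.97). Luminal tumor CT140 lay within or near the range of the luminal domains for Krt5 and Krt14, while CT132 lay far below. Vsig2 was at 2803, 9315 and 2069 in luminal tumors and 23484 and 44410 in luminal domains (3.09, 1.48 to 4.71), and Sprr2f at 43140, 60029 and 46091 against 314556 and 149534 (2.14, 0.34 to 3.94). Intervals in this comparison are not adjusted for the number of genes tested, and neither gene was called. Of the tested collagens 18 of 19 (median 3.35) and of the endothelial markers 12 of 12 (median 3.64) had a positive difference, with 0 called.

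Within mixed lesions the luminal domain was compared with the basal-like domain, CT129, CT144 and CT149, in a table normalized on its own. Luminal domain libraries are shared with the comparison above, so the values stand side by side and are not independent of it. Of 14874 genes tested limma called 0 (0%), with 757 at an unadjusted p under 0.05 (5.09%) and a smallest adjusted p of 0.651. Without a trend on the mean, the same test called 20. Captures with adjacent library numbers (CT128 and CT129, CT143 and CT144, CT148 and CT149) deviated together from their group means, with correlations across genes of 0.33 to 0.36, against −0.20 to −0.11 between the other captures. Deviations within a group sum to 0 for each gene, so the negative values follow from the positive ones and are not separate evidence. With these pairs as a block, an alternative chosen after seeing the data, limma called 1 gene (0.00672%), and 1858 had an unadjusted p under 0.05, 990 of them higher and 868 lower in the luminal domain. The called gene, Ctse, which encodes the protease cathepsin E, was at 14472, 28223 and 10443 in the luminal domains and 1197, 4435 and 850.2 in the basal-like domains (log2 difference 3.29 ± 0.23, adjusted p = 0.0358 with the block).

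The values that follow are from the fit without the block, in which no gene was called. The 95% intervals are not adjusted for the number of genes tested. Pparg was at 5427, 5086 and 4116 in the luminal domains and 3230, 2902 and 2326 in the basal-like domains (log2 difference 0.79, 95% interval 0.24 to 1.34, adjusted p = 0.864), and the basal-like domains lay far above the 13.7 to 135 normalized counts of basal tumors in the first table. Gata3 was at 14566, 12802 and 9320 against 9240, 6602 and 5432 (0.80, 0.16 to 1.43). Upk3b was at 13695, 7094 and 3049 against 2744, 1425 and 85.6 (3.26, 0.50 to 6.02), and Upk1b at 76595, 38894 and 60565 against 31188, 19694 and 27078 (1.15, 0.42 to 1.87). Upk1a overlapped between the groups but was higher in the luminal domain of every pair, at 68915, 1315 and 18781 against 17560, 604 and 1336, and with the block its difference was 2.30 (1.21 to 3.39, adjusted p = 0.166). Krt6a was at 19901, 15631 and 22257 against 20657, 53760 and 64410 (−1.12, −2.09 to −0.15), where the lowest basal-like domain fell within the luminal domains. Krt5 was at 114487, 65842 and 79590 against 104213, 149980 and 133436 (−0.60, −1.31 to 0.11), and with the block its interval was −1.18 to −0.017 (adjusted p = 0.388). Krt17 was at 412, 1873 and 1770 in luminal domains and at 394, 28370 and 320 in basal-like domains, of which CT144 alone came within the range of the basal tumors of the first table, which was normalized separately. Of the S phase list 39 of 42 and of the G2/M list 49 of 50 tested genes were lower in the luminal domain (medians −0.65 and −1.05, against −0.0093 over all genes), with 9 and 21 at an unadjusted p under 0.05. Top2a was at 1732, 1145 and 1617 against 3610, 3370 and 3021 (−1.17, −1.78 to −0.56, adjusted p = 0.651), and Fn1 at 874, 629 and 775 against 3733, 1558 and 3018 (−1.79, −2.68 to −0.89). Stromal genes were lower beside Fn1, with 15 of 19 fibroblast markers (median −1.57) and 15 of 18 collagens (median −1.12) below 0, and their part in its value was not tested. T cell markers were lower in 20 of 21 tested genes (median −1.92), and Trac was at 1.16, 62.6 and 80.9 against 409, 165 and 444. All 9 tested MHC class II genes were lower as well (median −1.68). The alpha-globin gene Hba-a2 was at 17084, 19890 and 26113 against 10180, 2419 and 1738 (2.56, 1.19 to 3.94).

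**Figure D5:**
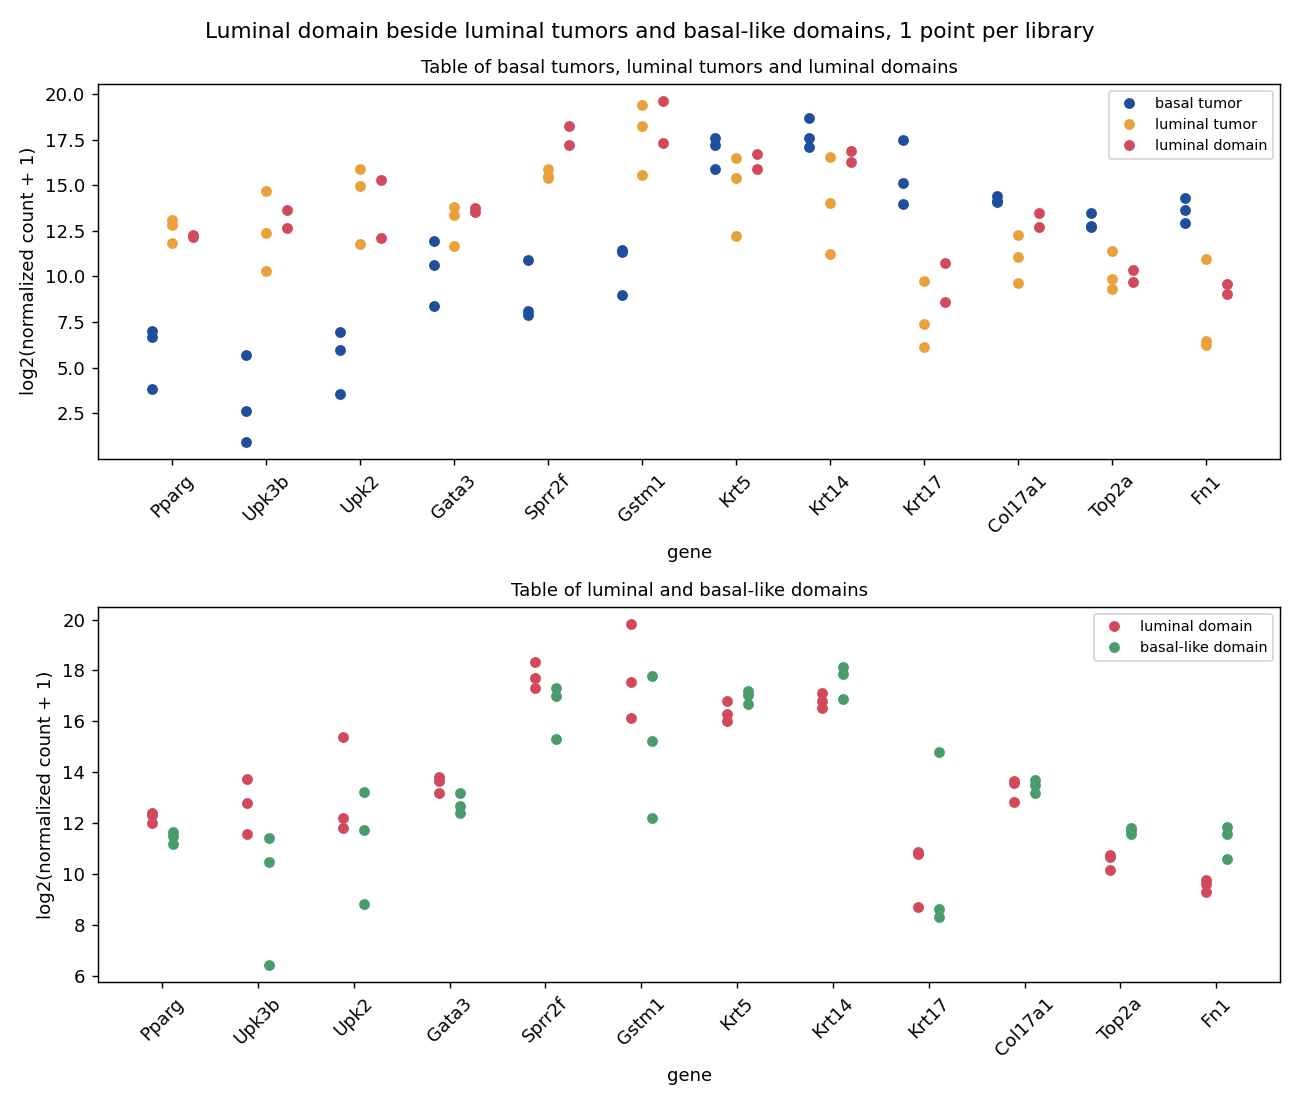
Values of log2(normalized count + 1) (y axes) are shown for 12 genes (x axes), 1 point per library, in the table of basal tumors, luminal tumors and 2 luminal domains (upper panel) and in the table of luminal and basal-like domains (lower panel), each normalized on its own. Pparg in both kinds of luminal lesion lies above the basal tumors. Col17a1 of the luminal domains lies above the luminal tumors, and Top2a and Fn1 of the luminal domains lie below the basal-like domains. In either of these last comparisons 0 genes were called by the fit with a trend, all libraries and no block.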

How the data were processed

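RNA-seq libraries (SMART-Seq v4, Nextera XT, no strand information) were made from captured cells of 5 µm frozen sections, chosen by histology and position. Per the labels and methods, the authors ran kallisto 0.44.0, tximport and DESeq2; the submitters' notes list GRCm38 and GRCh38 without a role, and the transcript index is not given in the sources used here. The deposited signal values are counts that the authors normalized within each table by factors that differ between genes, so whole reads could not be recovered. The deposited tables of the authors' own comparisons hold log2 fold changes and p-values from DESeq2 and were not used.

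Samples were grouped by their labels; column names tie libraries to groups only. In R 4.3.3, limma 3.58.1 (lmFit, eBayes with a trend) was run on log2(normalized count + 1) for genes that reached 10 normalized counts in 3 or more libraries, two-sided, with Benjamini-Hochberg adjustment over all genes tested at 0.05. The comparison with luminal tumors used a fit of all 3 groups in its table. Neither labels nor column names tie a luminal to a basal-like capture, so the comparison of these domains had no block; a fit with adjacent library numbers as pairs was added after the data were seen. Scripts were tested on simulated data. Named genes are those the study names, the 10 called genes that rose most and the 10 that fell most, without overlap between groups (mean of at least 100 in the higher group, no predicted genes), and up to 4 genes from each of 42 lists, called genes first. The members, lists and tests were chosen with earlier results of these data known; the 17 genes that the study names were picked by it on these samples and are no independent evidence. Some genes are not reported here. Genes named outside this rule (Krt15, Krt23, Upk3bl, Trp63, Epcam, Mki67, Gsn, Alas2, Des, Dcn, Pdgfra, Col1a1, Cd3e, Cd8a, Gzma and Adgre1, and those of the closing section) were chosen after their values were seen or to define a cell type, and Gstm4, Gstp2, Gstt2, Mgst3, Cyp1b1 and Por are the remaining called members of their lists. Of 35199 symbols 98.2% matched mouse gene names. Promoters come from RefSeq (GRCm38.p6). Figures were drawn with matplotlib 3.10.9. Alternatives were other pseudocounts, filters, variance models, scalings, tables and each library left out.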

Additional observations from a re-analysis of the deposited data

How the results depend on the processing

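The 377 called genes became 335 and 390 with a pseudocount of 0.5 and 5, 351 with a minimum of 50 normalized counts, 372 with robust variances, 425 with array weights and 348 with quantile normalization. Without a filter 144 genes were called (107 higher, 37 lower), without a trend 107 (67 and 40), against a log2 difference of 1 in limma's treat 12 (10 and 2), and in the larger tumor table, where CT148 is missing, 15 (11 and 4). When libraries were dropped singly the count ran from 0 to 518 (higher 0 to 368, lower 0 to 150). The called genes Mki67, Kif11, Ccne1, Cdt1, Aqp3, Hadhb, Usp18 and Gstm4 were called in 0 of these 6 fits. Sprr2f, Fn1, Akr1b8 and Hba-a2 were among those called in 4 of 6. Among the 377 were 43 of the 47 genes called without CT111 and 16 of the 17 called without CT148. The same held for only 272 of the 518 called without CT113 and 155 of the 234 called without CT115. Without a trend 80 of the 107 were among the 377. The comparison with basal-like domains gave 20 calls without a trend, 1 with the block below and 0 under every other alternative run, and that with luminal tumors gave 0 to 1 with a library left out and 0 under the others. The cause of these shifts was not tested.

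Directions turned in 5 genes that were not called. With a library left out their log2 differences ran as follows: Fgfr3 −0.12 to 0.96, Epcam −0.60 to 0.46, Cd3e −0.68 to 2.89, Cd8a −0.73 to 4.05 and Gzma −4.98 to 1.04. Fgfr3 was at −0.16 in the larger tumor table and Epcam at 0.0060 with array weights. Of the 180 genes checked, calls were lost in 2 to 12 under the other pseudocounts, the higher minimum, robust variances, array weights and both scalings, in 40 without a filter, in 73 without a trend and in 87 against a log2 difference of 1. In the larger tumor table, which has 176 of these genes after the filter, calls were lost in 84.

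For luminal domains against basal-like domains, the replicate block of adjacent library numbers, chosen after seeing the data, gave 1 call in place of 0; each capture correlated best with its neighbour in number, which is a hint from the data, not the design. No paired analysis was possible for the other comparisons because the columns carry no replicate numbers. The number of reads is unknown, so the precision of low values cannot be given. With 3 captures a group, leaving out CT111, CT115 or any 1 luminal domain ended most of the 377 calls. Of them 155 stayed without CT115 and 272 without CT113. Genes that miss the threshold are not shown to be equal.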

Other observations

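Of the 377 called genes 297 stand in none of the gene lists, and those below were chosen after their values were seen. Degs2, a dihydroceramide hydroxylase, was at 36.7, 8.63 and 369 normalized counts in the basal tumors and 15729, 8251 and 11328 in the luminal domains (log2 difference 7.79 ± 1.17, adjusted p = 0.0258), Fa2h, the fatty acid 2-hydroxylase, at 1.23, 27.8 and 61.2 in basal tumors against 4617, 3404 and 2575 in luminal domains (log2 difference 7.76 ± 1.22, adjusted p = 0.0283) and Sptlc3, a subunit of serine palmitoyltransferase, at 0.899, 0 and 92.8 in basal tumors against 2518, 1045 and 2571 in luminal domains (log2 difference 8.39 ± 1.70, adjusted p = 0.0480). The gasdermins Gsdmc2 and Gsdmc3, pore-forming proteins of epithelia and close copies of each other, were at 106, 5380 and 65.0 in basal tumors against 32367, 62991 and 93334 in luminal domains for Gsdmc2 (log2 difference 7.42 ± 1.47, adjusted p = 0.0468) and 49.2, 994 and 38.7 in basal tumors against 14278, 21459 and 42800 in luminal domains for Gsdmc3 (log2 difference 7.55 ± 1.14, adjusted p = 0.0258). Basal tumor CT113 held far more of both than CT111 and CT115. Ctse, the protease cathepsin E, was at 42.9, 273 and 7.80 in basal tumors against 13775, 26524 and 9823 in luminal domains (log2 difference 8.34 ± 1.12, adjusted p = 0.0239), Adh1, an alcohol dehydrogenase, at 17.1, 624 and 11.2 in basal tumors against 31048, 4599 and 21248 in luminal domains (log2 difference 8.13 ± 1.46, adjusted p = 0.0367), and Snap25, a SNARE protein of vesicle fusion, at 55.8, 0 and 0 in basal tumors against 844, 1540 and 1657 in luminal domains (log2 difference 8.39 ± 1.66, adjusted p = 0.0467).

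Other called genes were lower, and no group was counted or tested for them. Npm1, a nucleolar protein, was at 52956, 36348 and 50937 normalized counts in the basal tumors and 20775, 12155 and 17472 in the luminal domains (log2 difference −1.49 ± 0.31, adjusted p = 0.0499) and Ncl at 55103, 37278 and 43884 in basal tumors against 20560, 17269 and 16350 in luminal domains (log2 difference −1.32 ± 0.27, adjusted p = 0.0488), while Nop58 and Dkc1 gave log2 differences of −1.51 ± 0.27 (adjusted p = 0.0374) and −1.45 ± 0.29 (adjusted p = 0.0468). Saa3, an acute-phase apolipoprotein, was at 4129, 9641 and 13246 in basal tumors against 597, 249 and 283 in luminal domains (log2 difference −4.53 ± 0.53, adjusted p = 0.0203). Of the 254 genes called higher, 115 had their highest value in CT128, 75 in CT143 and 64 in CT148.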
